A study of Ctenopharyngodon idella with 6 samples.

Results

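The miRNAs miR-103 and miR-107 are close relatives that differ near their 3′ end and are best known for their part in metabolism. Their entries were taken from the deposited table of known miRNAs in plasma exosomes of grass carp (Ctenopharyngodon idella), as every row whose family number was exactly miR-103 or miR-107, whatever the species, letter or arm. This gave 22 of 2925 entries, 9 of miR-103 and 13 of miR-107. Small RNA was sequenced in 6 libraries from fish of 10 months that had reached different sizes in 1 high-density pond. The 6 large fish gave the libraries L1, L2 and L3 (plasma of 2 fish per pool), and the 15 small fish gave S1, S2 and S3 (plasma of 5 fish per pool). The fish were untreated, were picked for body weight from 1 catch, and were not sexed. The size of the pools and the size of the fish cannot be told apart in this design.

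In vertebrates the hairpins of miR-103 and miR-107 lie in introns of pantothenate kinase genes, whose enzymes begin the synthesis of coenzyme A. In mammals both miRNAs are found in most tissues, repress the caveolin gene Cav1 and the miRNA-processing enzyme Dicer, and lower insulin sensitivity when raised in liver and fat. They belong to the group of miR-15 and miR-107, whose members share the bases AGCAGC at the start of the mature strand. In the grass carp annotation of the HZGC01 build, the build used in the study, pank1a lies on chromosome 17 from 6007022 to 6021051, pank1b on chromosome 12 from 12674050 to 12684490 and pank2 on chromosome 13 from 23279400 to 23285042. A further gene, pank4, lies on chromosome 11 from 10872988 to 10896752, and no gene with the symbol pank3 was listed. The deposited rows carry no genome position for the miRNAs, so their place in these genes was not tested.

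The 22 entries were 14 of the 3p arm and 8 of the 5p arm, from 15 species prefixes. All 2925 entries of the table have different mature sequences, but many carry the same counts, and the 22 entries held 10 distinct sets of values over the 6 libraries. Each set is called here by its zebrafish name (prefix dre) where it has one, and otherwise by its alphabetically first name. The 7 sets of the 3p arm are shown first because they carry nearly all of the counts. Also shown are cpi-miR-107-3p, of the bta-miR-107 set, and pal-miR-107b-3p, of the ipu-miR-107b set. The seed (bases 2 to 8) is in capitals and the strand is written with T as in the deposited table:
aca-miR-103-3p: aGCAGCATtgtacagggctatg
xla-miR-103b-3p: aGCAGCATtgtacagggctatgaa
bta-miR-107: aGCAGCATtgtacagggctatc
cpi-miR-107-3p: aGCAGCATtgtacagggcta
cfa-miR-107: aGCAGCATtgtacagggctat
ipu-miR-107b: aGCAGCATtgtacagggct
dre-miR-107b: aGCAGCATtgtacagggcttt
pal-miR-107b-3p: aGCAGCATtgtacaggggtgt
pma-miR-103a: aGCAGCATcgtacagggcttgga
All 14 entries of the 3p arm had the seed GCAGCAT, and no other entry of the table had it. Counted from 1 at the 5′ end, miR-107 differed from the human miR-103a-3p sequence by G22C in bta-miR-107, and the zebrafish dre-miR-107b by A20T. The lamprey pma-miR-103a differed by T9C, A20T and T21G, and the bat pal-miR-107b-3p by C18G and A20G. The turtle cpi-miR-107-3p ends at base 20, before the base that separates the families, so that its whole sequence is also the start of miR-103.

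The 5p arm, the other strand of the hairpin, is shown by 1 name for each of its 3 sets of values, of which the first pair share a seed:
dre-miR-107a-5p: aGCTTCTTtacagtgttgtcttg
aca-miR-107-5p: aGCTTCTTtacagtgttgcc
gmo-miR-103-2-5p: aGCCTCTTtacagtgctgcctt
The seed GCTTCTT was found in 5 members and in 6 entries of the whole table, and GCCTCTT in 2 members and in no other entry.

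miR-103 and miR-107 were present at middle abundance in the exosomes of both groups and at nearly the same level in all 6 libraries. Values are counts per 1000000 miRNA counts of the library (CPM), from which whole counts were recovered. The library totals were 5272418 to 11524535 counts, so that a count of 0 allows up to 0.260 to 0.569 CPM, which covers counting error only. The most abundant miR-103 set, aca-miR-103-3p with 3 further names (efu-miR-103a, efu-miR-103b and hsa-miR-103a-3p), read 104 CPM in L1, 101 in L2 and 83.6 in L3, against 96.8 in S1, 90.1 in S2 and 99.4 in S3. The large fish libraries held both the highest and the lowest value, and the 3 small fish libraries lay between them. The most abundant miR-107 set, bta-miR-107 with cpi-miR-107-3p, efu-miR-107 and hsa-miR-107, read 104 CPM in L1, 99.99 in L2 and 83.02 in L3, against 97.2 in S1, 90.8 in S2 and 99.7 in S3. Its libraries had the same order as for miR-103, with L1 highest and L3 lowest. When each miRBase family number stood for its most abundant entry, miR-103 ranked 66 and miR-107 ranked 67 by level among 152 families that reached 1 CPM in 3 libraries or more.

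**Figure D1:**
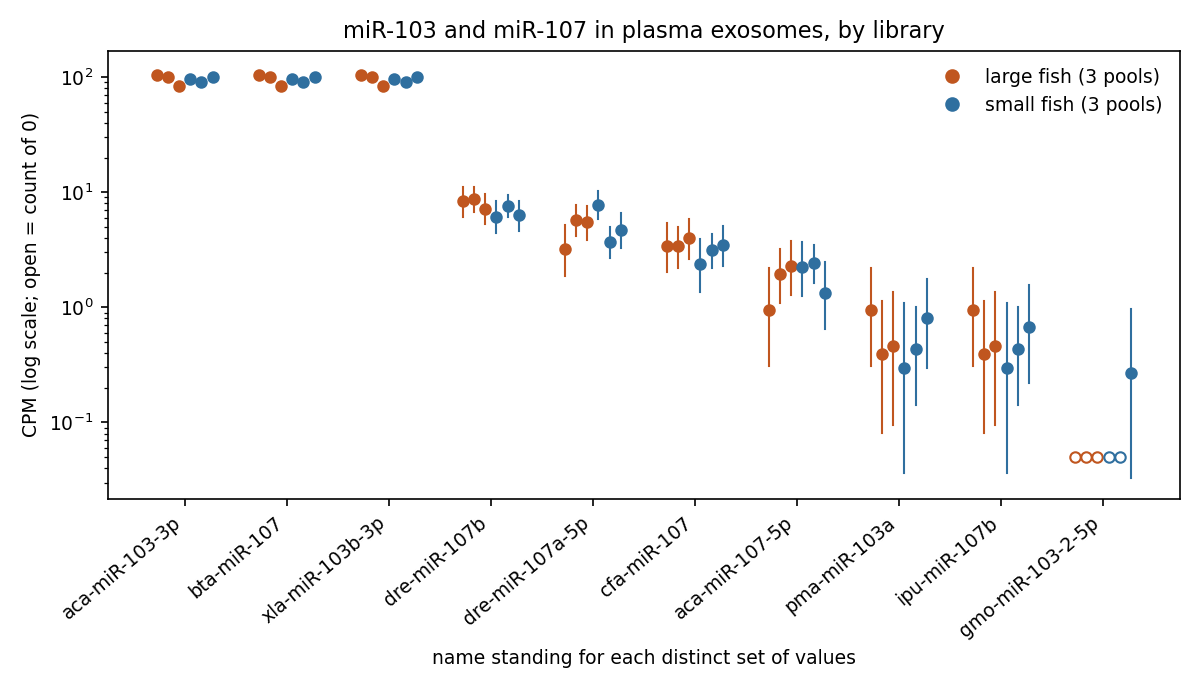
CPM (log axis) of the 10 distinct sets of values in each library, L1 to L3 in orange and S1 to S3 in blue, with exact 95% Poisson intervals that cover counting error only; open circles mark a count of 0 and are drawn at a fixed low position. The first 3 sets lie between 83.0 and 104 CPM in every library, the other 7 at 8.75 CPM or less.

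The miR-103 and miR-107 names carried nearly the same counts. In L1 both aca-miR-103-3p and bta-miR-107 had 547, in L2 they had 774 and 766, and in L3 545 and 541. In S1 they had 647 and 650, in S2 1038 and 1046, and in S3 740 and 742. The net difference was thus between 0 and 8 counts, or at most 1.03% of the higher count. The deposited values do not show which reads were counted under both names. A read ending before base 22 matches both sequences, but its part in the near-equal counts was not tested. Names of 20, 22, 23 and 25 bases held identical values in the miR-107 set. The levels of the families are not read here as independent measurements.

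Apart from L1, where it was 0, the small net difference lay on opposite sides in the groups. The miR-103 name held 8 and 4 more counts than the miR-107 name in L2 and L3 and as many in L1, while it held 3, 8 and 2 fewer in S1, S2 and S3. These differences rest on few counts, and no counting error was worked out for them. The log2 ratio of miR-107 to miR-103 averaged -0.0084 ± 0.0076 over the large fish pools and 0.0071 ± 0.0036 over the small fish pools (SD, n = 3 each), without overlap. A 2-sided exact permutation test returned p = 0.1, which this design cannot go below, and adjusted p = 0.2 over the 2 ratios tested. The frog entry xla-miR-103b-3p, which runs 2 bases beyond aca-miR-103-3p, lacked 2 of its counts in L2 and 2 in L3 and none in the other libraries.

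**Figure D2:**
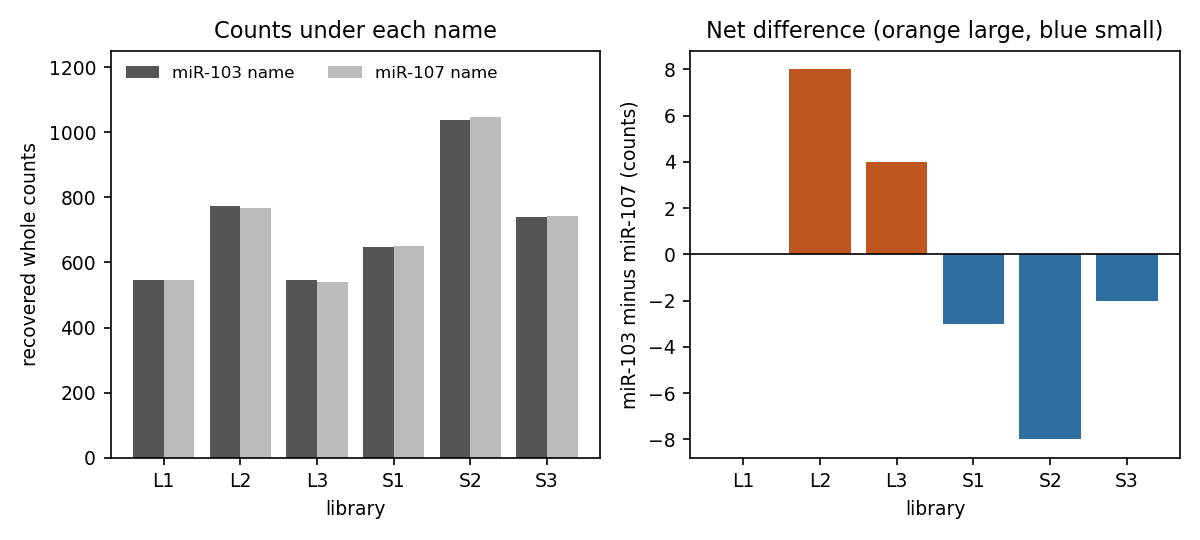
Left, recovered whole counts under aca-miR-103-3p (dark) and bta-miR-107 (light) in each library; right, miR-103 minus miR-107 in counts, large fish in orange and small fish in blue. The pairs of bars are nearly equal, from 541 to 1046 counts, and the net difference runs from -8 in S2 to 8 in L2.

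The remaining 3p names were far lower although their sequences differ little. The zebrafish dre-miR-107b read 8.35 CPM in L1, 8.75 in L2 and 7.21 in L3, against 6.13 in S1, 7.64 in S2 and 6.32 in S3, which is 7.72% of the mean of miR-103. Its groups overlapped, since S2 lay above L3. The dog entry cfa-miR-107 was at 3.41, 3.39 and 3.99 CPM in large fish and at 2.39, 3.12 and 3.49 in small fish, again with overlap. Its 21 bases are the start of both aca-miR-103-3p and bta-miR-107, whose means were each 29.0 times higher. The catfish ipu-miR-107b, at 19 bases the start of the same sequences, held 5, 3 and 3 counts in the large fish libraries and 2, 5 and 5 in the small fish libraries, between 0.299 and 0.948 CPM. The bat pal-miR-107b-3p, with 2 different bases, held exactly these counts, and the lamprey pma-miR-103a held 1 more count in S3. According to the methods, reads were mapped to precursors before they were counted, and the precursor sequences were not analysed here, so the part of the precursor in these differences was not tested.

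The 5p arm was detected at low level and only under miR-107 names in most libraries. The zebrafish dre-miR-107a-5p read 3.22 CPM in L1, 5.74 in L2 and 5.52 in L3, against 7.78 in S1, 3.73 in S2 and 4.70 in S3, that is 17 to 52 counts. The highest and the lowest of the small fish libraries enclosed L2 and L3. The aca-miR-107-5p set, with mmu-miR-107-5p, oan-miR-107-5p and rno-miR-107-5p, was at 0.948, 1.96 and 2.302 CPM in large fish and at 2.24, 2.43 and 1.34 in small fish, from 5 to 28 counts. The 3 names of the miR-103 5p arm (gmo-miR-103-2-5p, gmo-miR-103-5p and xla-miR-103b-5p) were at 0 in 5 libraries and at 2 counts in S3, where each counted 0.269 CPM. In L1, the shallowest library, a count of 0 allows up to 0.569 CPM.

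The 3p arm exceeded the 5p arm in every library. The ratio of aca-miR-103-3p to dre-miR-107a-5p, the highest entry of each arm, was 32.2 in L1, 17.6 in L2 and 15.1 in L3, against 12.4 in S1, 24.1 in S2 and 21.1 in S3. It sets a miR-103 name over a miR-107 name, so it does not measure the arms of 1 hairpin. The groups overlapped, with L1 highest and S1 lowest. On the scale of log2(CPM + 1) the ratio averaged 4.08 ± 0.49 for large and 3.96 ± 0.42 for small fish (SD, n = 3 pools each; 2-sided exact permutation test, p = 0.8, adjusted p = 0.8 over the 2 ratios). The direction turned to -0.15 (large minus small) without large fish replicate 1 and to -0.12 without small fish replicate 1.

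No entry of miR-103 or miR-107 passed the test between large and small fish. The 1807 entries that reached 1 CPM in 3 libraries or more entered 1 limma fit of log2(CPM + 1), with differences taken as large minus small fish and p values adjusted over all of them by the Benjamini-Hochberg method. An entry was called where the adjusted p did not exceed 0.05 and the fold change reached 1.5. Of the 22 members, 16 were tested, in 7 sets, and 0 were called, against 17.0% of all tested entries (2.82% higher and 14.2% lower in large fish). At an unadjusted p under 0.05 there were also 0, against 32.5% of all tested entries. On the recovered counts, edgeR's quasi-likelihood test, its exact test and DESeq2 called 0 members as well, against 2.55%, 19.4% and 20.5% of all tested entries. The groups overlapped in all 16 members, which form 7 sets and are not independent measurements. Among all tested entries the groups did not overlap in 40.1% (10.5% higher and 29.6% lower in large fish). Replicates were pools of different fish, so the p values measure the spread between pools.

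For miR-103 the mean was 96.1 ± 10.9 CPM among large fish pools and 95.4 ± 4.84 among small fish pools (SD, n = 3 each). The log2 fold change was 0.0053 (standard error 0.20, 95% interval -0.46 to 0.47, limma adjusted p = 0.988). This interval spans 0.725-fold to 1.39-fold, so that on the deposited scale it ended short of a 1.5-fold change in either direction. For miR-107 the means were 95.6 ± 11.04 and 95.9 ± 4.63, a log2 fold change of -0.010 (standard error 0.20, 95% interval -0.48 to 0.46, limma adjusted p = 0.983). The representatives of the families gave the same values when tested among 152 families, of which 19.7% were called (4.61% higher and 15.1% lower in large fish) and 40.1% had groups that did not overlap (15.8% higher and 24.3% lower), with limma adjusted p of 0.979 for miR-103 and 0.973 for miR-107.

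The less abundant members had wider intervals that reached past 1.5-fold. The zebrafish dre-miR-107b differed by 0.24 on the log2 scale (95% interval -0.29 to 0.78, limma adjusted p = 0.515), and cfa-miR-107 by 0.21 (95% interval -0.36 to 0.78, limma adjusted p = 0.600). The 5p entry dre-miR-107a-5p differed by -0.12 (95% interval -0.90 to 0.67, limma adjusted p = 0.842), and aca-miR-107-5p by -0.15 (95% interval -0.89 to 0.59, limma adjusted p = 0.766). A 1.5-fold difference thus lay within their intervals.

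The level relative to the other miRNAs depended on the scaling. Over all tested entries the log2 fold change had a median of -0.26 on the deposited scale, of -0.05 with TMM scaling and of 0.09 with quantile normalization. The log2 fold change of aca-miR-103-3p was 0.0053, 0.25 and 0.62 on these scales, or 0.27, 0.31 and 0.53 relative to the median. That of bta-miR-107 was -0.010, 0.24 and 0.56, or 0.25, 0.29 and 0.47 relative to the median. Neither was called after quantile normalization (limma adjusted p = 0.0787 and 0.115), where 0 members were called, against 12.9% of all tested entries. On that scale 11 of the 16 members, in 5 of 7 sets, had an unadjusted limma p under 0.05, against 31.5% of all tested entries. Neither members nor sets are independent here, since the most abundant miR-103 and miR-107 names carried nearly the same counts. The groups were thus nearly equal in the share of all miRNA counts, while relative to the median miRNA both values were above 0 on each scale.

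**Figure D3:**
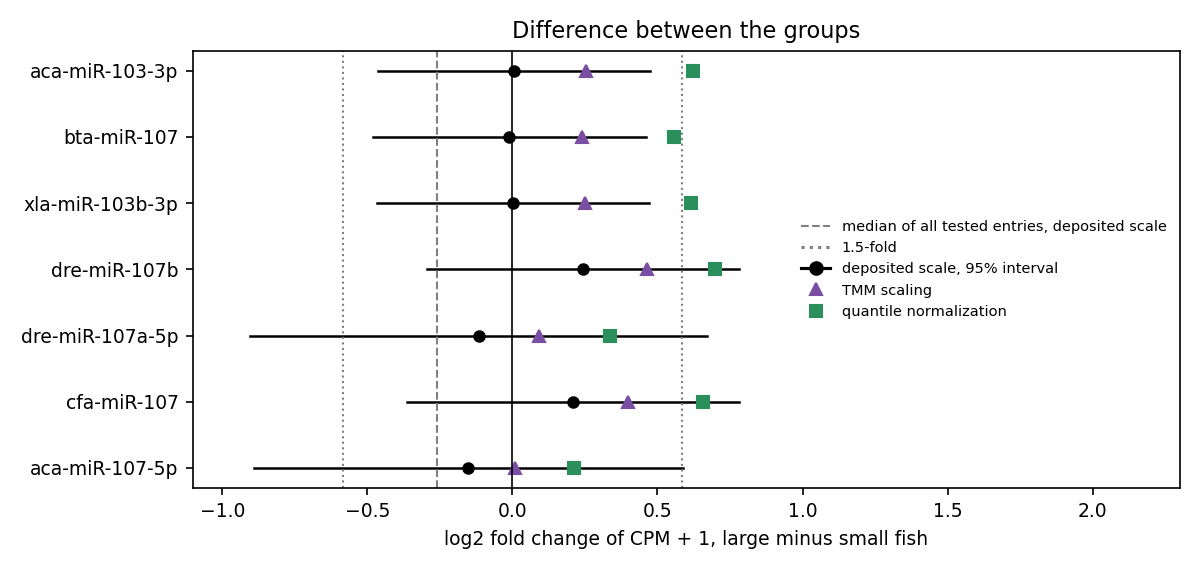
Log2 fold change of CPM + 1, large minus small fish, for the 7 tested sets: black points with 95% intervals from limma on the deposited scale, triangles after TMM scaling and squares after quantile normalization, with 1.5-fold changes dotted and the median of all tested entries dashed. All intervals include 0, and the squares of miR-103 and miR-107 lie at 0.62 and 0.56.

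Few families varied as little over the 6 libraries. The SD of log2(CPM + 1) over the libraries was 0.12 for both miR-103 and miR-107, which ranked 3 and 4 from the lowest among the 109 families with a mean of at least 10 CPM, whose median SD was 0.54 and whose range was 0.081 to 2.48. Counting alone would give 0.055 for either. In CPM the coefficient of variation was 7.89% for miR-103 and 7.91% for miR-107. After TMM scaling the SD was 0.20 for both families, ranks 6 and 5, and after quantile normalization it was 0.38 and 0.35, ranks 33 and 30. Without L3, the library in which both were lowest, the SD on the deposited scale was 0.077 for miR-103 and 0.071 for miR-107. The spread is a description of these libraries, with no test.

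**Figure D4:**
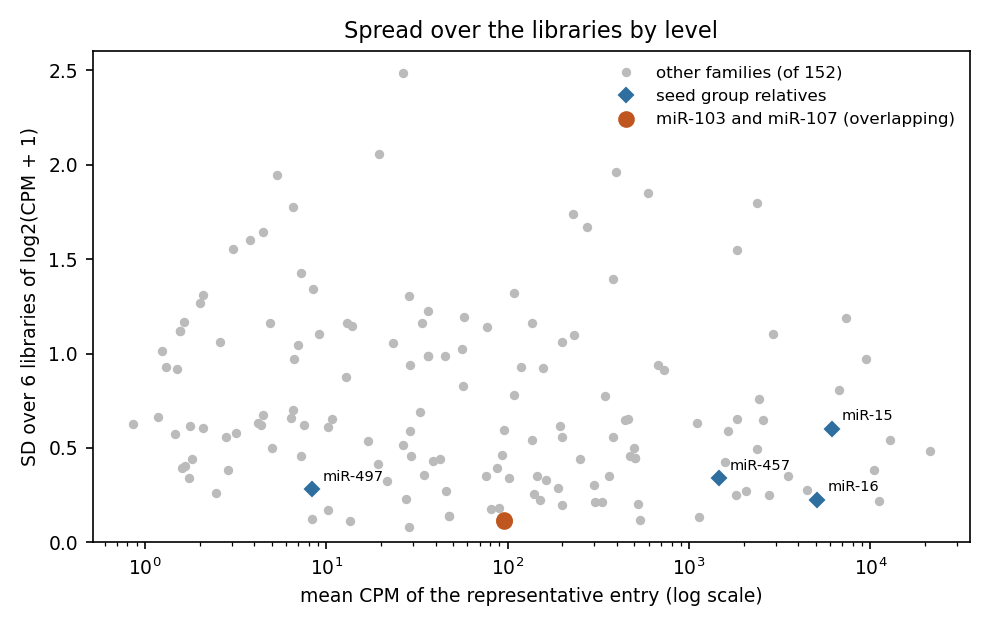
SD over the 6 libraries of log2(CPM + 1) against mean CPM (log axis) for the representatives of 152 families, with miR-103 and miR-107 in orange and the tested relatives of the group of miR-15 and miR-107 as blue diamonds. On the deposited scale the orange points lie at an SD of 0.12, below miR-16 at 0.23 and miR-15 at 0.60.

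The miR-210 family, known for its response to low oxygen, followed miR-107 in the order of likeness to miR-103 by the measure used, which favours families that are themselves nearly flat. Profiles were compared by the root mean square difference of log2(CPM + 1) after centring, over 6 libraries and 108 families with a mean of at least 10 CPM. It was 0.0092 for miR-107, 0.10 for miR-210, 0.11 for miR-24, 0.14 for miR-30, 0.14 for miR-17, of the miR-17-92 cluster of proliferating cells, and 0.15 for miR-7, an endocrine and neuronal family. Pearson's r with miR-103 was 0.996 for miR-107 and between 0.033 and 0.56 for the other 5, and miR-100, the next in the order, had 0.58, above the 0.56 of miR-210, as a description over 6 libraries that share their scaling. The representative of miR-210 was the 5p entry ami-miR-210-5p. It was at 557, 563 and 532 CPM in large fish and at 540, 453 and 564 in small fish, and S2 was its lowest library. None of these families was called (limma adjusted p of 0.560 to 0.862 for the 5).

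The relatives of the group of miR-15 and miR-107 carry the shared bases 1 position later than miR-103, shown here with AGCAGC in capitals:
aca-miR-103-3p: AGCAGCattgtacagggctatg
dre-miR-15c: aAGCAGCgcgtcatggttttc
ccr-miR-16c: tAGCAGCatgtaaatattgga
dre-miR-457a: aAGCAGCacatcaatattggca
ami-miR-497-5p: cAGCAGCacatcatggtttgt
On the mature strand as listed, 16 entries begin with AGCAGC and 57 have it from base 2, together 2.496% of the table. Of those that begin with it, 14 are the 3p entries of miR-103 and miR-107 and 2 are of miR-457. Of 9 relatives listed (miR-15, miR-16, miR-195, miR-322, miR-424, miR-457, miR-497, miR-503 and miR-646), 4 families were tested, and large fish were higher in 1 of them by the same call and lower in 0, against 4.61% and 15.1% of all families. Their entries were taken by family number, so that some of them lack AGCAGC at base 1 or 2. Of these 63 tested entries 2 were called as higher and 0 as lower, against 2.82% and 14.2% of all tested entries. Their median log2 fold change was 0.057, against -0.26 over all tested entries.

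The 4 tested relatives were far more abundant than miR-103 with the exception of miR-497. The cell cycle regulator miR-15, as dre-miR-15c, read 8830 CPM in L1, 10016 in L2 and 5660 in L3, against 4255 in S1, 3909 in S2 and 3961 in S3. Its log2 fold change was 0.97 with a standard error of 0.25 (limma adjusted p = 0.0372 over families), and the groups did not overlap. It was not called in 9 of 18 other settings, 5 of which left out L1, L2, S1, S2 or S3 (limma adjusted p of 0.0741 to 0.120). Its neighbour in the genome, miR-16, averaged 5045 ± 968 CPM over large and 5077 ± 805 over small fish pools (SD, n = 3 each), which differed by -0.015 on the log2 scale (95% interval -0.56 to 0.53, limma adjusted p = 0.973). The miR-457 family was at 1398 ± 234 and 1533 ± 455 CPM (limma adjusted p = 0.839). For miR-497 the means were 8.89 ± 1.38 and 7.77 ± 2.12 CPM (limma adjusted p = 0.726).

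Among other families with described metabolic roles, 7 of 9 were tested (miR-33, miR-122, miR-375, miR-29, miR-143, miR-27 and miR-34, without miR-378 and miR-802), and 1 was called, as lower in large fish, against 15.1% of all families. Of their 131 tested entries 11 were called as lower and 0 as higher, against 14.2% and 2.82% of all tested entries. The called family was miR-143, known from smooth muscle and from adipocytes, with 1416 ± 347 CPM among large and 3452 ± 375 among small fish pools (SD, n = 3 each; log2 fold change -1.31, limma adjusted p = 0.0192). It was lower in large fish in all 18 other settings but was not called without L1, S1 or S3 (limma adjusted p of 0.0522 to 0.0787). The cholesterol regulator miR-33 was at 1.58 ± 0.567 and 1.92 ± 0.811 CPM, and the liver miRNA miR-122 at 160.5 ± 87.4 and 227 ± 33.4 (limma adjusted p = 0.818 and 0.321). The median log2 fold change over the 7 tested families was -0.63, which is the value of miR-122, against -0.20 over all 152 families. Over their 131 tested entries it was -0.24, against -0.26 over all tested entries.

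miR-103 and miR-16 are often used as reference miRNAs in plasma, with others. Of 8 such families listed (miR-16, miR-23, miR-25, miR-93, miR-191, miR-423, miR-484 and let-7), 5 were tested. In these 5, 0 of the most abundant entries were called in either direction. The share called over all 152 families was 19.7% (4.61% up and 15.1% down in large fish), so 0 calls among 5 say little. Of the 5 families' 149 tested entries 6 passed with higher and 0 with lower levels, against 2.82% and 14.2% of all tested entries. On the deposited scale the SD of log2(CPM + 1) over the 6 libraries was 0.22 for let-7, 0.22 for miR-93 and 0.23 for miR-16. It was 0.25 for miR-25 and 0.29 for miR-23, and each lay above the 0.12 of miR-103. The SD of miR-103 itself grew to 0.20 under TMM and to 0.38 under quantile normalization. The 5 reference families were not compared with it on those scales, so this order is stated for the deposited scale only. The groups did not overlap for miR-93 and let-7, which were higher in every large fish library, with log2 fold changes of 0.32 and 0.35 (limma adjusted p = 0.293 and 0.207). Among all 152 families the groups did not overlap in 40.1% (15.8% higher and 24.3% lower in large fish).

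Markers of the cells that plasma vesicles can come from differed between the same libraries. The summed representatives of the leukocyte families (miR-223, miR-150, miR-142) were at 9374 to 11700 CPM in large fish and 3283 to 4506 in small fish, and 3 of 3 were called as higher, against 4.61% of all families. Those of the muscle families miR-1, miR-133 and miR-206 were at 2374 to 6609 and 10585 to 17496 CPM, and 3 of 3 were called as lower, against 15.1% of all families. The paper names all of these leukocyte and muscle families as differing in the same libraries, so their calls are not independent support. Without S1 0 of the 152 families were called (limma adjusted p of 0.0522 to 0.102 for these 6), and without L1, L2 or S3 0 of the 3 muscle families were called either. Without L1 or S3 miR-150 was the only leukocyte family called. Over the 18 other settings miR-142 was called in 8, miR-223 in 14 and miR-150 in 17. For the muscle families miR-1, miR-133 and miR-206 this was 12, 14 and 11. The red blood cell families miR-144 and miR-451 were at 3118 to 3275 and 1411 to 3344 CPM, and neither was called, nor was miR-122 of liver or miR-126 of endothelium and thrombocytes. No family of these lists was at 0. As miR-103 and miR-107 are found in many cell types, the share of each cell type in their level was not tested, and fewer vesicles of a type cannot be told apart from less miRNA per vesicle.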

How the data were processed

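According to the study's methods, trimmed reads were cleared of other RNA classes with Bowtie and mapped to precursors, with the grass carp genome (HZGC01) and miRBase as references, and molecular identifiers were used in counting. The values deposited by the authors are counts per 1000000 (CPM) of all known and newly predicted miRNA counts of a library, with no length normalization. 1 read can be counted under several names, and entries with distinct values summed to 658528 to 732431 of 1000000 CPM. In each library, 100% of the values above 0 were whole multiples of the lowest value, within 0.02 of a count, which gave whole counts for 5272418 to 11524535 counts per library.

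Entries were tested in R 4.3.3 with limma 3.58.1 (trend, pseudocount 1), and the counts also with DESeq2 1.42.0 and edgeR 4.0.16, after the procedure was tested on simulated data. Ratios were compared with exact permutation tests. Families were miRBase numbers. The rule for named miRNAs took each set of values, both families, tested relatives of the group of miR-15 and miR-107 and the 5 families with the most similar profile. Other list members were named as examples after their values were seen. The members and lists were chosen with earlier results of these data known. The alternatives were the count tests, a block for the replicate number, leaving out 1 library at a time, 1 entry per set of values, zebrafish entries, other scalings (TMM, quantile), other pseudocounts (0.1 and 10), other filters (10 CPM or none) and limma with no trend.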

Additional observations from a re-analysis of the deposited data

How the results depend on the processing

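No member was called under any alternative (0 of 22 entries without a filter, 0 of 9 with the filter of 10 CPM, 0 of 7 with identical entries counted once and 0 of 16 otherwise). The share of all tested entries called was 7.28%, 24.4% and 17.9% in the first 3 of these. It was 2.55% with edgeR's quasi-likelihood test, 1.44% without S3, 0.387% without L1 and 0.0553% without L2. Where so few entries were called, 0 calls among the members say little. Deviations from the group mean correlated at -0.067 to -0.027 in libraries with the same replicate number, against -0.117 to 0.147 in the other pairs. No pairing by number was thus seen, though 3 libraries per group are too few to exclude it. The replicate block changed no call of a member. The log2 fold change of miR-103 (aca-miR-103-3p) ran from -0.052 to 0.62 and that of miR-107 (bta-miR-107) from -0.072 to 0.56. With 1 library left out, miR-103 ran from -0.052 to 0.10, miR-107 from -0.072 to 0.087, xla-miR-103b-3p from -0.057 to 0.10, dre-miR-107a-5p from -0.31 to 0.14, aca-miR-107-5p from -0.32 to 0.076 and the arm ratio from -0.15 to 0.31. The log2 fold change of miR-107 turned to 0.24 after TMM scaling, 0.56 after quantile normalization, 0.25 with either edgeR test and 0.29 with DESeq2. Among families it was 0.12 with either edgeR test, 0.19 with DESeq2 and 0.24 with the zebrafish entry dre-miR-107b. For dre-miR-107a-5p the values were 0.093 and 0.34 after these scalings and 0.12, 0.12 and 0.16 with the quasi-likelihood test, the exact test and DESeq2. For aca-miR-107-5p they were 0.0082, 0.21, 0.047, 0.050 and 0.092. The SD over the libraries moved to 0.38 for miR-103 and 0.35 for miR-107 after quantile normalization. The count of all entries called was 213 without a filter, 260 after TMM scaling, 233 after quantile normalization, 207 with the replicate block, 46 with edgeR's quasi-likelihood test and between 1 and 365 with 1 library left out, against 308. Of these, 51 were higher and 257 lower in large fish, against 95 and 165 with TMM and 138 and 95 with quantile normalization.

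The smaller members rest on few counts, 17 to 88 per library for dre-miR-107b and dre-miR-107a-5p, and a 1.5-fold change lay within their intervals.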
